A study of Mus musculus with 11 samples.

Results

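The metallothioneins Mt1 and Mt2, their metal-sensing transcription factor Mtf1, and 4 metal transporters of the liver (Slc39a14, Slc39a4, Slc30a1 and Slc30a10) were followed in tumour-free mouse liver. These 7 genes, of 19938 with a probe set of their own, were selected by name, with earlier results of these data in view. The measured value in the rule was the mean over 11 arrays, from which a probe set was to be chosen for each gene, but each of the 7 had a single probe set annotated to it alone. The fall of Mt1 and Mt2 against wild type was known when the genes were listed. Their values in those comparisons are therefore a description and carry no p. RNA came from 4 Mdr2-KO/IL6-KO livers (Mdr2 and interleukin 6 both deleted), 4 Mdr2-KO livers (Mdr2 alone deleted) and 3 wild-type livers (WT, C57BL/6). All mice were male and 14 months old, and tissue from the knockouts was labelled free of tumour. Sample titles carry a prefix in WT that differs from that in both knockout groups and is not explained, so whatever it stands for and genotype cannot be told apart. The labels give a strain for wild type only. They do not say whether wild-type and knockout mice were littermates or whether each array was a separate mouse. The p-values therefore judge group differences against the spread between these arrays, which may not be that between mice. Values are log2 levels of probe sets; they compare arrays with each other for 1 gene and not genes with each other.

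Metallothioneins are small cysteine-rich proteins that bind zinc, copper and cadmium. In hepatocytes their genes are switched on by zinc through Mtf1, which binds metal response elements in their promoters, and also by glucocorticoids and by interleukin 6 in the acute-phase response. Cellular zinc is set by importers of the Slc39 (ZIP) family, which bring metal into the cytosol, and exporters of the Slc30 (ZnT) family, which remove it. Mdr2, encoded by Abcb4, moves phosphatidylcholine into bile, and its loss leads to bile duct injury and fibrosis in mice.

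The targeted gene Abcb4 was at 7.83 to 8.32 in Mdr2-KO/IL6-KO and 7.54 to 7.98 in Mdr2-KO, against 9.74 to 9.95 in WT, and so matched the labels. Il6 was at 1.62 to 2.09 on all arrays, near the bottom of the scale, and checks nothing. Hepatocyte markers (10 of 14 listed were measured) had a mean level of 11.91 to 12.01 in Mdr2-KO/IL6-KO, 12.04 to 12.11 in Mdr2-KO and 12.08 to 12.14 in WT. Bile duct markers (12 of 15 measured) had a mean level of 6.11 to 6.34, 6.02 to 6.26 and 5.38 to 5.44 in the same groups, and 7 of the 12 were called higher in each knockout group than in WT. Of 12 stellate cell markers, 6 were called higher in Mdr2-KO/IL6-KO and 5 in Mdr2-KO, and of 12 macrophage markers 2 in each. Over all genes, 2.91% were called higher in Mdr2-KO/IL6-KO and 0.948% in Mdr2-KO. The mean of the 12 macrophage markers was 6.96 to 7.17 in Mdr2-KO/IL6-KO, 6.82 to 7.28 in Mdr2-KO and 6.30 to 7.37 in WT. In mean level, 8 of these 12 lay below WT in Mdr2-KO/IL6-KO and 6 in Mdr2-KO. Of the 10 hepatocyte markers, 1 was called lower and 0 higher in Mdr2-KO/IL6-KO, where 1.28% of all genes were called lower. Arrays lay wholly below WT for 7 of the 10 there, against 6.44% of all genes, and wholly above for 1, against 9.85%. In Mdr2-KO they did so for 2, against 3.64%, and 1, against 5.49%, and 0 were called. Of 11 measured lymphocyte markers, 1 was called lower in Mdr2-KO/IL6-KO and 0 in Mdr2-KO. The part of these markers in the results that follow was not tested. In whole tissue fewer cells of a type and less RNA per cell cannot be told apart. Mdr2-KO replicates 2 and 3 stood apart, with limma array weights of 0.424 and 0.570 against 0.885 to 1.74 on the other 9 arrays.

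The promoter windows of the metallothioneins and of Slc30a1 are shown because metal response elements are the textbook link between Mtf1 and these genes. That of Slc30a10 is shown beside them as the other Slc30 member. RefSeq windows from 250 bases before to 50 after the annotated start, on GRCm38.p6, were at hand for 5 of the 7 genes. The core of the metal response element was searched as TGCACNC or TGCGCNC on both strands, and matches are in capitals.

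Mt1, chr8:94178839-94179138, + strand: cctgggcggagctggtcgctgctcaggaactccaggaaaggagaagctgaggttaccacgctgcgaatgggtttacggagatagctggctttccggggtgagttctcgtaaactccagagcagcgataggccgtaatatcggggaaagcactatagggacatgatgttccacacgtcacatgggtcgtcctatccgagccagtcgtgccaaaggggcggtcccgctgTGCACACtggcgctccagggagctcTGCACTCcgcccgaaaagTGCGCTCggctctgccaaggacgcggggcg
Mt2, chr8:94172368-94172667, + strand: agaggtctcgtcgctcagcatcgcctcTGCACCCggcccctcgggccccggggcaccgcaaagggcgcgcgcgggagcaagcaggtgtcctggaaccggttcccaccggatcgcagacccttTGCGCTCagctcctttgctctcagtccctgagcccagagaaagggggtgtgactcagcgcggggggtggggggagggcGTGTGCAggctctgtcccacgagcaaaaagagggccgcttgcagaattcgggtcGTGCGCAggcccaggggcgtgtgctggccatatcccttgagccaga
Slc30a1, chr1:191906531-191906830, + strand: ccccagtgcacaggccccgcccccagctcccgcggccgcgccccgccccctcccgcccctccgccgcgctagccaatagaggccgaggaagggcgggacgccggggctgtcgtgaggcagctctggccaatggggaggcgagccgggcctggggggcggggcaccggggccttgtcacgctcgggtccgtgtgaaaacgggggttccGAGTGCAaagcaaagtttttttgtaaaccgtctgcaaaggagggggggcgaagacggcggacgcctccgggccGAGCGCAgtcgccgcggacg
Slc30a10, chr1:185454598-185454897, + strand: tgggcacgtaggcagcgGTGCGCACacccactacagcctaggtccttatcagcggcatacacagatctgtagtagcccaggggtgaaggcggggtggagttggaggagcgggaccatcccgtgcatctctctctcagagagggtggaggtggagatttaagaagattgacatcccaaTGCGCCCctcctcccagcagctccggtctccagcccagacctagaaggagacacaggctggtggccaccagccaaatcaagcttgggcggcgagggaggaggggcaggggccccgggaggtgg

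The Mt2 window held 4 cores and the Mt1 window 3. Of the 3 in Mt1, the first began 23 bases before the annotated start and the others 3 and 21 bases after it. Positions hold for that RefSeq start alone, and cores outside the windows were not counted. In Mt2 they began 223, 128 and 50 bases before the start and 5 bases after it. Slc30a1, the zinc exporter known as an Mtf1 target, held 2, and Slc30a10 held 3, of which 2 overlapped on opposite strands. The Mtf1 window held none of these letters. Of 32851 RefSeq windows of the same length, 25.7% held at least 1 core, 1.97% held 3 or more and 0.517% held 4 or more. The STAT motif TTCNNNGAA was in 8.3% of all windows and in none of the 5. The starts of the Mt2 and Mt1 windows lay 6471 bases apart on chromosome 8, in the order Mt4, Mt3, Mt2, Mt1 among the protein-coding genes.

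Loss of both Mdr2 and interleukin 6 went with the lowest levels of both metallothioneins. Mt2 (probe set 10574023) had log2 levels of 8.78, 8.18, 7.96 and 7.61 in Mdr2-KO/IL6-KO, against 12.28, 11.48 and 12.09 in WT. The groups were far apart, and the lowest WT array lay well above the highest double knockout array. The mean was 8.13 ± 0.492 (SD, n = 4) in Mdr2-KO/IL6-KO and 11.95 ± 0.418 (SD, n = 3) in WT, a log2 change of -3.82 ± 0.49 (SE), or 14.2-fold lower. Mt1 (probe set 10574027), which encodes the near relative of Mt2, was at 8.94, 8.56, 8.37 and 8.34 in Mdr2-KO/IL6-KO, against 11.87, 11.42 and 11.65 in WT. Its arrays did not overlap either, and its log2 change was -3.09 ± 0.37 (SE), or 8.51-fold lower. Ordered by log2 change over the 19938 genes, Mt2 was the lowest and Mt1 ranked 3 from the bottom.

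In Mdr2-KO livers with interleukin 6 intact, both metallothioneins were lower than in WT but scattered widely. Mt2 was at 8.49, 9.90, 10.96 and 8.54 in Mdr2-KO replicates 1 to 4, against 12.28, 11.48 and 12.09 in WT. Mt1 was at 8.76, 10.33, 10.57 and 8.92 in the same Mdr2-KO arrays, against 11.87, 11.42 and 11.65 in WT. Replicates 1 and 4 lay at the level of the double knockouts, and replicates 2 and 3 lay between them and WT without reaching it. The log2 change was -2.48 ± 0.49 (SE) for Mt2, 5.59-fold lower, and -1.998 ± 0.37 (SE) for Mt1, 3.99-fold lower. Mt2 again had the lowest log2 change of all genes, and Mt1 ranked 8 from the bottom. The SD over Mdr2-KO arrays was 1.19 for Mt2 and 0.937 for Mt1. Pooled within groups, the SD was 0.814 for Mt2 and 0.608 for Mt1, which placed them 14 and 62 among all genes, for which the median was 0.150.

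**Figure D1:**
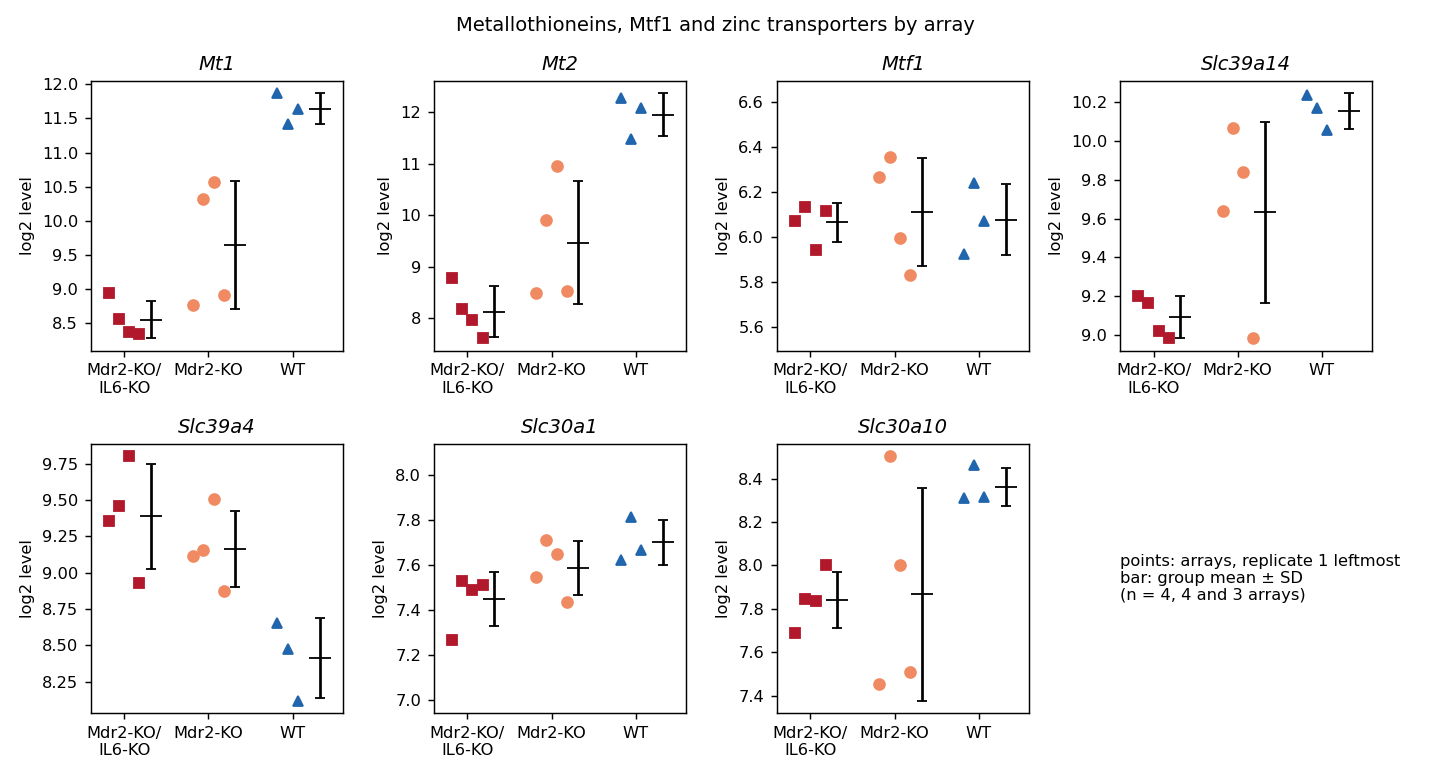
Log2 level of each of the 7 genes on each array (points, with Mdr2-KO/IL6-KO squares, Mdr2-KO circles and WT triangles) and the group mean ± SD (bars, n = 4, 4 and 3); the vertical scale differs between panels. Mt1 and Mt2 sit at 7.61 to 8.94 in Mdr2-KO/IL6-KO and at 11.42 to 12.28 in WT, with Mdr2-KO replicates 1 and 4 within the double knockout range and replicates 2 and 3 between it and WT, while Slc39a4 runs the other way.

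Mtf1, the zinc-sensing activator of the metallothionein genes, differed little between the groups. It was at 6.07, 6.13, 5.94 and 6.12 in Mdr2-KO/IL6-KO, at 6.27, 6.36, 6.00 and 5.83 in Mdr2-KO, and at 5.93, 6.24 and 6.07 in WT. All 3 groups overlapped. The log2 change was -0.01 for Mdr2-KO/IL6-KO against WT (95% interval -0.28 to 0.26; limma adjusted p = 0.983) and 0.03 for Mdr2-KO against WT (-0.24 to 0.30; limma adjusted p = 0.9755). The sign of both changed with single arrays or with array weights. These are RNA levels, and the activity of the protein was not measured.

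Among the importers, Slc39a14 was lower and Slc39a4 higher in the double knockout. Slc39a14 (ZIP14), which takes zinc, iron and manganese into hepatocytes and is induced by interleukin 6, was at 9.20, 9.16, 9.02 and 8.98 in Mdr2-KO/IL6-KO, against 10.24, 10.17 and 10.05 in WT. The groups did not overlap, and Slc39a14 fell 2.08-fold (log2 change -1.06 ± 0.19 SE; limma adjusted p = 0.00583). The call ended in the unmoderated model (adjusted p = 0.0574). In Mdr2-KO it was at 9.64, 10.07, 9.84 and 8.99, which runs from the double knockout level into the WT range. There its log2 change from WT was -0.52 ± 0.19 (SE) and did not pass (limma adjusted p = 0.316).

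Slc39a4 (ZIP4), best known as the importer for dietary zinc in the gut, was at 9.35, 9.46, 9.80 and 8.93 in Mdr2-KO/IL6-KO, against 8.66, 8.47 and 8.12 in WT. All knockout arrays exceeded all WT arrays, and Slc39a4 rose 1.96-fold (log2 change 0.97 ± 0.19 SE; limma adjusted p = 0.0119). That call was lost without WT replicate 3, the lowest array (log2 change 0.82, adjusted p = 0.0642), and in the unmoderated model (adjusted p = 0.0808). In Mdr2-KO Slc39a4 was at 9.11, 9.16, 9.51 and 8.88. These arrays also lay above WT, but the log2 change of 0.75 ± 0.19 (SE), 1.68-fold, did not pass (limma adjusted p = 0.0949).

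Neither exporter passed the test in the model of all 3 groups. Slc30a1 (ZnT1), which exports zinc across the plasma membrane, was at 7.27, 7.53, 7.49 and 7.51 in Mdr2-KO/IL6-KO, at 7.55, 7.71, 7.65 and 7.44 in Mdr2-KO, and at 7.62, 7.81 and 7.67 in WT. Double knockout arrays lay below all WT arrays, and Mdr2-KO arrays overlapped both. The log2 change from WT was -0.25 ± 0.10 (SE; limma adjusted p = 0.218) in Mdr2-KO/IL6-KO and -0.11 ± 0.10 (SE; limma adjusted p = 0.827) in Mdr2-KO. Slc30a10, a member of the zinc exporter family that exports manganese in liver, was at 7.69, 7.84, 7.83 and 8.003 in Mdr2-KO/IL6-KO, against 8.31, 8.46 and 8.32 in WT. The groups were apart, but the log2 change of -0.52 ± 0.20 (SE) did not pass (limma adjusted p = 0.207). In Mdr2-KO it was at 7.45, 8.50, 8.003 and 7.51, with replicate 2 above every WT array (log2 change -0.50 ± 0.20 SE; limma adjusted p = 0.396). Without Mdr2-KO replicate 2, Slc30a10 was called lower in both: adjusted p = 0.0204 for Mdr2-KO at a log2 change of -0.71, and 0.0360 for Mdr2-KO/IL6-KO at the unchanged -0.52. With all arrays of the groups compared, it was also called lower in Mdr2-KO with array weights (log2 change -0.66, adjusted p = 0.0462) and in Mdr2-KO/IL6-KO in the fit of only the 2 groups (adjusted p = 0.0112), and in Mdr2-KO/IL6-KO without both low-weight arrays (adjusted p = 0.00672).

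**Figure D2:**
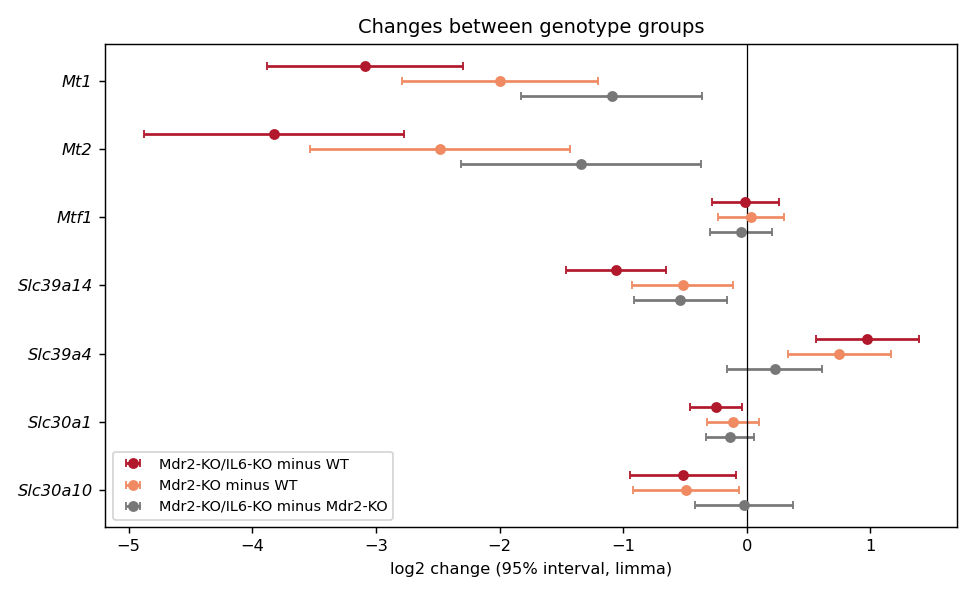
Log2 change of the 7 genes (points) with its 95% interval from limma, not adjusted for the number of genes (bars), in Mdr2-KO/IL6-KO against WT, Mdr2-KO against WT, and Mdr2-KO/IL6-KO against Mdr2-KO. Mt1 and Mt2 lie furthest left, Slc39a4 lies right of 0 against WT, and the intervals of Mtf1 cross 0 in all 3 comparisons.

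Against WT, limma called 3 of the 7 genes lower in Mdr2-KO/IL6-KO (Mt1, Mt2 and Slc39a14), where 1.28% of all genes were called lower, and 1 higher (Slc39a4), where 2.91% were. Arrays lay wholly below WT for 5 of the 7, against 6.44% of all genes, and wholly above for 1, against 9.85%. In Mdr2-KO, 2 of the 7 were called lower, Mt1 and Mt2, where 0.316% of all genes were called lower, and 0 higher, where 0.948% were. At an unadjusted p under 0.05, limma had 4 of the 7 lower and 1 higher in that comparison, where 4.09% of all genes were lower and 5.69% higher. Arrays lay wholly below WT for 2, against 3.64% of all genes, and wholly above for 1, against 5.49%. The metallothioneins were listed with their fall known, so nothing is read from their share of these counts. The median log2 change over the 7 was -0.52 in Mdr2-KO/IL6-KO and -0.50 in Mdr2-KO, and that over all genes -0.00056 and -0.0056. Both comparisons share the same 3 WT arrays.

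The count of called members in Mdr2-KO, which rests on Mt1 and Mt2 and is a description, moved with single arrays. It was 0 without WT replicate 1 or 3, 1 without WT replicate 2 or Mdr2-KO replicate 1 or 4, and reached 3 once Mdr2-KO replicate 2 was left out, which added Slc30a10. Without both arrays of low weight, Mdr2-KO replicates 2 and 3, it was 4, with Slc39a14 (log2 change -0.84, adjusted p = 0.0368) and Slc30a10 (-0.88, adjusted p = 0.00283) called lower. In Mdr2-KO/IL6-KO the log2 change over the 22 alternatives lay between -3.22 and -2.98 for Mt1 and between -4.06 and -3.65 for Mt2.

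The comparison of both knockout groups asks what loss of interleukin 6 adds where Mdr2 is already missing. No member was called (limma, 0 of 7, also under each of the 22 alternatives), where 0.00502% of all genes, a single gene, were called in either direction. At an unadjusted p under 0.05, 3 of the 7 were lower, against 2.04% of all genes, and 0 higher, against 2.78%. These 3 were Mt1, Mt2 and Slc39a14. The members were listed with earlier results of these data in view, and Mt1 and Mt2 moved together. Nothing is therefore read from the share of members in this comparison. Mt2 averaged 8.13 ± 0.492 in Mdr2-KO/IL6-KO and 9.47 ± 1.19 in Mdr2-KO (SD, n = 4 each), a log2 change of -1.34 ± 0.45 (SE; 95% interval -2.31 to -0.37; limma adjusted p = 0.9995). Mt1 averaged 8.55 ± 0.274 and 9.64 ± 0.937 in the same groups (SD, n = 4 each), a log2 change of -1.09 ± 0.34 (SE; 95% interval -1.82 to -0.36; limma adjusted p = 0.908). For both genes the arrays overlapped: Mdr2-KO/IL6-KO replicate 1 exceeded Mdr2-KO replicates 1 and 4. Without Mdr2-KO replicate 3 the log2 change of Mt2 was -0.85, and without replicates 2 and 3 that of Mt2 was -0.38 and that of Mt1 -0.29. It was larger without Mdr2-KO replicate 1 (-1.67 for Mt2 and -1.39 for Mt1) and without replicate 4 (-1.65 and -1.33). Slc39a14 had a log2 change of -0.54 ± 0.17 (SE; limma adjusted p = 0.966), and only Mdr2-KO replicate 4 lay among the double knockout arrays. Its log2 change was -0.75 without Mdr2-KO replicate 4 and -0.22 without replicates 2 and 3. Slc39a4 (0.22 ± 0.18 SE), Slc30a1 (-0.14 ± 0.09 SE), Mtf1 (-0.05 ± 0.12 SE) and Slc30a10 (-0.02 ± 0.18 SE) lay closer to 0, with limma adjusted p of 0.9995 for each of the first 3 and 0.9999 for Slc30a10.

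Ordered by group, Mt1, Mt2, Slc39a14 and Slc30a1 had their lowest mean in Mdr2-KO/IL6-KO, an intermediate mean in Mdr2-KO and their highest in WT, and Slc39a4 had the opposite order. Slc30a10 had the order of Mt1 and Mt2, but its knockout means were close, 7.84 in Mdr2-KO/IL6-KO and 7.87 in Mdr2-KO, against 8.36 in WT. For Mt1 and Mt2 the arrays of Mdr2-KO and WT did not overlap, and those of the knockout groups did. For Slc39a14, Slc30a1 and Slc30a10 the arrays were apart only between Mdr2-KO/IL6-KO and WT. For Slc39a4 both knockout groups lay above WT and overlapped each other.

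Mt1 and Mt2 moved together array by array. As a description of likeness, Pearson r with Mt2 was taken over the 11 arrays, and again over the 11 deviations from group means, which leave out the genotype differences. Arrays share their processing, and no p is attached. Mt1 had the highest r with Mt2 of all other genes by both measures, 0.992 and 0.956. Whether their probe sets, of 2 closely related transcripts, bind each other's RNA was not tested. Its r over deviations was 0.943 to 0.988 with any array left out and 0.942 without the 2 arrays farthest in Mt2, Mdr2-KO replicates 1 and 3. For Slc39a14 the r was 0.904 over arrays and 0.646 over deviations, and the second fell to 0.252 without Mdr2-KO replicates 2 and 3. Slc30a10 had r of 0.703 and 0.472, and the second turned to -0.945 without those 2 arrays. Slc30a1 had 0.664 and 0.124, with -0.866 over deviations without those 2 arrays. Slc39a4 had -0.639 over arrays, being higher in the groups where Mt2 was lower. Over deviations its r was 0.496, 0.258 at the lowest with 1 array left out and 0.196 without those 2 arrays. Mtf1 had -0.013 and -0.077.

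**Figure D3:**
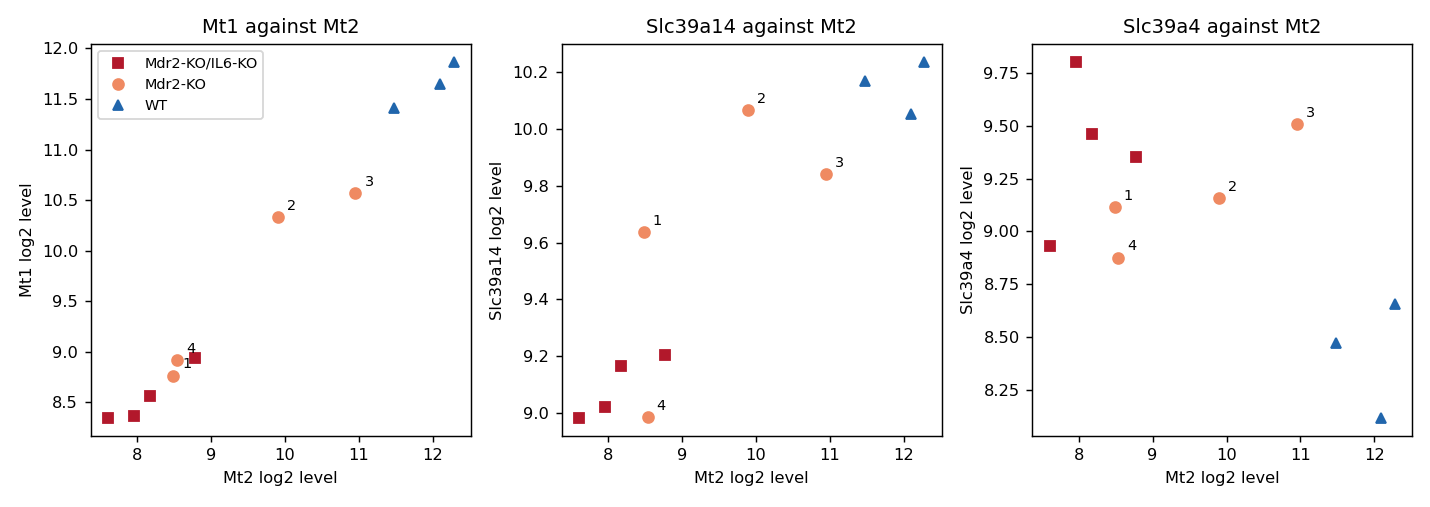
Log2 level of Mt1, Slc39a14 and Slc39a4 against that of Mt2, with a point for each of the 11 arrays (squares Mdr2-KO/IL6-KO, circles Mdr2-KO with replicate numbers, triangles WT). Mt1 follows Mt2 along a line through all 3 groups, Mdr2-KO replicates 2 and 3 lie between the others, and Slc39a4 is lowest in WT.

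Beyond the members, the 6 genes most like Mt2 over the 11 arrays were D10Wsu102e (r = 0.933), the fibrinogen chain Fgg (0.927), the acute-phase serpin Serpina3n (0.913), the sugar phosphate carrier Slc37a1 (0.912), the interferon signalling factor Stat2 (0.912) and the small heat shock protein Hspb8 (0.910). The 3 most opposed were Alg9, of protein N-glycosylation (-0.944), the O-GlcNAc transferase Ogt (-0.938) and the netrin receptor Unc5b (-0.933). Over deviations from group means the list was a different one: Dtymk (0.940), Alpk2 (0.933), Ptcd2 (0.928), Olfr60 (0.924), Bad (0.912) and Vmn2r94 (0.910). All 6 lay above their group mean in Mdr2-KO replicates 2 and 3, the arrays of low weight, and below it in replicates 1 and 4. Their r without those low-weight arrays was not taken. The receptor genes Olfr60 and Vmn2r94 averaged 2.66 and 1.92 in Mdr2-KO, near the bottom of the scale.

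The values that set Mdr2-KO replicates 2 and 3 apart were read beside the lists of genes that respond to known metallothionein inducers. The mean of 15 glucocorticoid responsive genes was 8.09, 8.58, 8.66 and 8.39 in Mdr2-KO replicates 1 to 4, highest in the 2 arrays with high Mt1 and Mt2. It ran from 8.12 to 8.72 in Mdr2-KO/IL6-KO and 8.29 to 8.50 in WT, however, so the groups overlapped. The mean of 24 acute-phase genes was 10.20, 10.03, 10.67 and 10.48 in Mdr2-KO replicates 1 to 4, with replicate 2 the lowest. It ran from 9.87 to 9.96 in Mdr2-KO/IL6-KO and 10.34 to 10.95 in WT. The part of either list in the metallothionein levels was not tested.

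Of the other zinc genes, Slc30a5 and Slc39a7 were called, both lower in Mdr2-KO/IL6-KO. The list of other zinc genes held the brain and epithelial metallothioneins Mt3 and Mt4, 12 more ZIP and 8 more ZnT genes and Tmem163, 23 in all, each with a probe set. Limma called 2 of the 23 lower and 0 higher in Mdr2-KO/IL6-KO against WT, where 1.28% and 2.91% of all genes were called. In Mdr2-KO against WT it called 0 in either direction, with 1 lower and 3 higher at an unadjusted p under 0.05, beside 4.09% and 5.69% of all genes. For Mdr2-KO/IL6-KO against Mdr2-KO it called 0, with 2 lower and 0 higher at that p, beside 2.04% and 2.78% of all genes. Slc30a5 (ZnT5), which loads zinc into the secretory pathway, was at 7.96, 7.89, 7.93 and 7.86 in Mdr2-KO/IL6-KO, against 8.76, 8.47 and 8.46 in WT. It fell 1.57-fold with no overlap (log2 change -0.65 ± 0.11 SE; limma adjusted p = 0.00344). It was at 8.48, 8.48, 8.23 and 8.14 in Mdr2-KO, and every double knockout array was lower still, but this difference did not pass (log2 change -0.42 ± 0.10 SE; limma adjusted p = 0.628).

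Slc39a7 (ZIP7), which releases zinc from the endoplasmic reticulum, was at 7.60, 7.55, 7.71 and 7.73 in Mdr2-KO/IL6-KO, against 7.98, 8.05 and 8.03 in WT. It fell 1.30-fold (log2 change -0.37 ± 0.08 SE; limma adjusted p = 0.0163). The call ended without WT replicate 2 or 3 or without Mdr2-KO/IL6-KO replicate 2 (adjusted p = 0.0514 to 0.0642). In Mdr2-KO it was at 7.86, 7.83, 7.76 and 7.81, below WT on every array, with a log2 change of -0.21 ± 0.08 (SE) that did not pass (limma adjusted p = 0.346). Mt3 and Mt4, the neighbours of Mt2 on the chromosome, differed from WT by -0.10 and 0.04 in Mdr2-KO/IL6-KO and by 0.02 and -0.00 in Mdr2-KO on the log2 scale (limma adjusted p = 0.786 to 0.994). Slc30a9, a nuclear and mitochondrial member of the ZnT family singled out after its values were seen, was higher than WT on every Mdr2-KO array, but its log2 change of 0.47 ± 0.11 (SE) did not pass (limma adjusted p = 0.0504). The median log2 change over the 23 was 0.04 in Mdr2-KO/IL6-KO and -0.00 in Mdr2-KO.

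**Figure D4:**
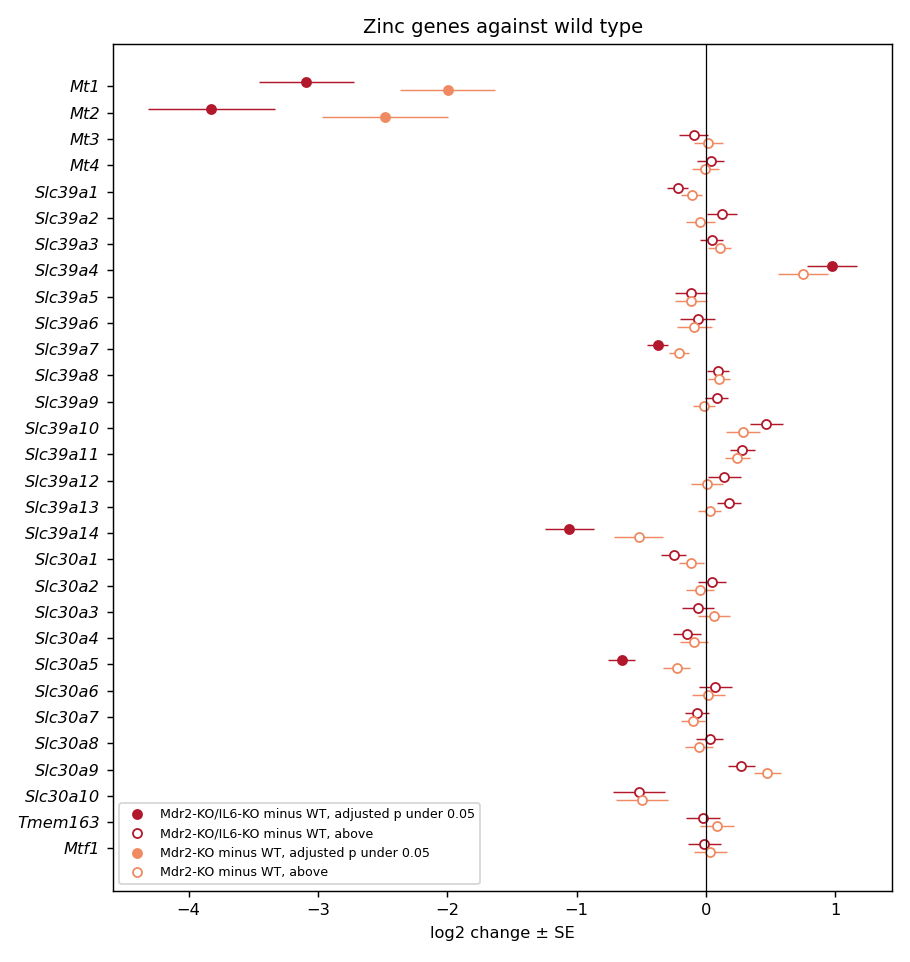
Log2 change ± SE against WT for all measured metallothioneins, ZIP (Slc39a) and ZnT (Slc30a) genes, Tmem163 and Mtf1, with Mdr2-KO/IL6-KO above Mdr2-KO in each row and filled points where the limma adjusted p was under 0.05. Mt1 and Mt2 stand far from the rest, and Slc39a14, Slc30a5 and Slc39a7 are filled on the left and Slc39a4 on the right for Mdr2-KO/IL6-KO.

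Other metal genes moved in both directions. Of 18 genes of copper and other metal handling, 2 were called lower and 1 higher in Mdr2-KO/IL6-KO against WT, and 1 lower in Mdr2-KO. Over all genes, 1.28% were called lower and 2.91% higher in Mdr2-KO/IL6-KO, and 0.316% lower in Mdr2-KO. The magnesium transporter Slc41a2 fell 3.54-fold in Mdr2-KO/IL6-KO (-1.82 ± 0.17 SE on the log2 scale; limma adjusted p = 5.76e-05) and 1.88-fold in Mdr2-KO (-0.91 ± 0.17 SE; limma adjusted p = 0.0176), where the call ended without WT replicate 1 or 2 or without both low-weight arrays. Between the knockout groups Slc41a2 differed by -0.91 (limma adjusted p = 0.168), which passed with array weights (0.0371) and without Mdr2-KO replicate 2 (0.0396). The metalloreductase Steap4, also an acute-phase gene, fell 2.30-fold in Mdr2-KO/IL6-KO (limma adjusted p = 0.000772), and Steap3, which reduces iron, rose 1.62-fold (limma adjusted p = 0.00165).

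Of 14 measured zinc enzymes of liver, 3 were called higher and 0 lower in Mdr2-KO/IL6-KO against WT, beside 2.91% and 1.28% of all genes. Carbonic anhydrase Car14 rose 2.05-fold (limma adjusted p = 0.000611), alkaline phosphatase Alpl 1.77-fold (limma adjusted p = 0.0015) and carbonic anhydrase Car2 1.45-fold (limma adjusted p = 0.0162, lost without WT replicate 2 or Mdr2-KO/IL6-KO replicate 1). In Mdr2-KO only Car14 passed, 1.78-fold higher (limma adjusted p = 0.006, lost in the unmoderated model at 0.0725). In that comparison 0.948% of all genes were called higher. Alpl had the lowest p of this list between the knockout groups, 0.37 higher on the log2 scale (limma adjusted p = 0.796).

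Of 12 metal and Mtf1 responsive genes other than the members, 1 was called higher in Mdr2-KO/IL6-KO and 1 higher and 1 lower in Mdr2-KO, against WT. Over all genes, 2.91% were called higher in Mdr2-KO/IL6-KO, and 0.948% higher and 0.316% lower in Mdr2-KO. The secreted protease Adamts9 rose 1.43-fold in Mdr2-KO/IL6-KO (limma adjusted p = 0.0039) and in Mdr2-KO (limma adjusted p = 0.00963), and the lipid droplet protein Plin2 fell 1.61-fold in Mdr2-KO (limma adjusted p = 0.0183). The Plin2 call ended without any WT array in turn and without Mdr2-KO replicate 1, 3 or 4. In Mdr2-KO/IL6-KO Plin2 was also below WT on every array, but its log2 change of -0.45 ± 0.13 (SE) did not pass (limma adjusted p = 0.0757). Between the knockout groups Plin2 had the lowest p of the list (log2 change 0.24; limma adjusted p = 0.9995).

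Of 15 glucocorticoid responsive genes, 0 were called in Mdr2-KO against WT (limma; Per1 had the lowest p, with a log2 change of 0.37 and adjusted p = 0.518). In Mdr2-KO/IL6-KO 1 was called lower, the iron-siderophore binding protein Lcn2, which is also an acute-phase gene (2.45-fold; limma adjusted p = 0.0197, lost without WT replicate 1 or 3 or Mdr2-KO/IL6-KO replicate 2 or 3). Between the knockout groups Lcn2 differed by -0.88 on the log2 scale (limma adjusted p = 0.806). Of 24 acute-phase genes, 15 were called lower and 0 higher in Mdr2-KO/IL6-KO and 2 lower and 0 higher in Mdr2-KO, against WT. Over all genes, 1.28% were called lower and 2.91% higher in Mdr2-KO/IL6-KO, and 0.316% and 0.948% in Mdr2-KO. For 2 of the 24 the mean was above WT in Mdr2-KO/IL6-KO (log2 change at most 2.73) and for 3 in Mdr2-KO (at most 1.87). The serum protein Itih4 fell 2.05-fold (limma adjusted p = 2.04e-05), Serpina3n 2.47-fold (limma adjusted p = 0.000226) and the complement component C4b 1.67-fold (limma adjusted p = 0.000466) in Mdr2-KO/IL6-KO. In Mdr2-KO Serpina3n fell 1.79-fold (limma adjusted p = 0.0108, lost in the unmoderated model at 0.102 and in the fit of only the 2 groups at 0.0659) and Itih4 1.41-fold (limma adjusted p = 0.0128, lost without WT replicate 1 or 3 and without both low-weight arrays). Between the knockout groups Itih4 differed by -0.55 (limma adjusted p = 0.0706, and 0.0337 with array weights). Earlier results of these data had already shown the acute-phase genes lower, so their count is no independent support.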

How the data were processed

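Total RNA from liver was hybridised as biotinylated cRNA to Affymetrix arrays, per the labels' protocols. The authors deposited log2 levels of 35557 probe sets on 11 arrays, produced, per the submitters' processing notes, by RMA within Partek; versions and settings are not given in the sources used here. Array medians of these deposited values, which were not normalized again, ran from 5.09 to 5.23. Probe sets with 1 gene symbol (21789; 1621 had several and 12147 none) were named through the platform annotation, with symbols updated by Entrez identifier against RefSeq (GRCm38.p6, 19856 of 19938 genes matched). Of several probe sets the brightest over all arrays was kept. No dim genes were left out. The number of arrays limits the precision.

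Groups were compared with limma 3.58.1 in R 4.3.3, in 1 model of the 3 groups with eBayes, two-sided, and Benjamini-Hochberg adjustment over all genes. Calls are at an adjusted p under 0.05. The fit was tested on simulated data. The labels give no batch or pairing. The members, lists and naming rule (all members; called zinc genes; up to 3 called genes, or the 1 of lowest p, per other list and comparison; the genes most like Mt2) were chosen with earlier results of these data known. Alternatives were the mean of probe sets, only genes above the median gene, 3 further normalizations, other moderation, array weights, only the 2 groups compared, adjusted p under 0.01 and each array left out; leaving out both low-weight arrays was added after seeing the data.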

Additional observations from a re-analysis of the deposited data

Results flagged for a closer look

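In 72 groups of 4 arrays (36 named genes in both knockout groups), 4 had an array far from the other 3, measured as its gap to the nearest array over the range of the group; chance gives this in about 1 of 20 groups. Slc30a1 was low in Mdr2-KO/IL6-KO replicate 1, at 7.27 (gap 0.853 of the range). Adamts9 was high in Mdr2-KO replicate 4, at 7.21 (0.845). Steap4 was low in Mdr2-KO/IL6-KO replicate 4, at 10.14 (0.852). Slc37a1 was high in Mdr2-KO replicate 3, at 6.93 (0.843). The wide scatter of Mt1 and Mt2 in Mdr2-KO came from 2 low and 2 high arrays, not from a single far one.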

How the results depend on the processing

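No paired analysis was possible because the labels give no pairing of arrays between groups. They give no replicate numbers either, and those used here only name arrays. Of the 22 alternatives, 12 kept the count of called members in Mdr2-KO against WT within 1.5 times, as did 21 in Mdr2-KO/IL6-KO against WT. In Mdr2-KO the count, 2 as reported, was 0 with eBayes trend and robust, in the unmoderated model, in the fit of only the 2 groups and at an adjusted p under 0.01, 4 without both low-weight arrays, and 0 to 3 with 1 array left out. In Mdr2-KO/IL6-KO it was 2 rather than 4 in the unmoderated model. Called other zinc genes in Mdr2-KO numbered 1 (Slc30a9) rather than 0 with the mean of probe sets, with only genes above the median gene, with median centring, with trend and robust, with array weights and without both low-weight arrays, and 0 to 1 with 1 array left out. In Mdr2-KO/IL6-KO they numbered 1 rather than 2 at an adjusted p under 0.01, and 1 to 3 with 1 array left out. Between the knockout groups members and other zinc genes stayed at 0 under all 22. Of all genes, 252 were called in Mdr2-KO, against 43 in the unmoderated model, 410 with array weights, 138 in the fit of only the 2 groups, 94 at an adjusted p under 0.01 and 148 to 323 with 1 array left out. In Mdr2-KO/IL6-KO 836 were called, against 496, 1341 and 342 in the unmoderated model, with array weights and at an adjusted p under 0.01, and 464 to 989 with 1 array left out. Between the knockout groups 1 was called, against 4 with only genes above the median gene or cyclic loess, 2 with median centring, with trend and robust or without both low-weight arrays, 0 in the unmoderated model, 6 with array weights and 1 to 5 with 1 array left out. The log2 change of Mtf1 turned sign: in Mdr2-KO it was -0.022 with array weights, -0.029 without both low-weight arrays and -0.047 to 0.13 with 1 array left out; in Mdr2-KO/IL6-KO it was 0.0019 with array weights and -0.089 to 0.068 with 1 array left out; between the knockout groups it was 0.024 with array weights, 0.016 without both low-weight arrays and -0.14 to 0.034 with 1 array left out. That of Slc30a10 between the knockout groups was 0.15 with array weights, 0.36 without both low-weight arrays and -0.16 to 0.19 with 1 array left out. In the unmoderated model the calls of Plin2, Slc41a2, Serpina3n and Car14 in Mdr2-KO and of Slc39a14, Slc39a4, Lcn2 and Car2 in Mdr2-KO/IL6-KO were also lost (adjusted p = 0.0558 to 0.145). The cause was not tested, except that leaving out arrays means fewer samples and a lower adjusted p limit is stricter by construction. The small number of arrays limits all 3 comparisons.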
